A study of Mus musculus with 335 samples.

Results

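The genes described here are 9 transcripts that interferon-gamma is known to induce, Cxcl9, Cxcl10, Cxcl11, Ubd, Iigp1, Tgtp2, Gbp2, Gbp3 and Irf1, taken by symbol from a table of 20188 mouse genes. All 9 had a row. The study sequenced RNA from 335 untreated mouse samples in 61 groups: primary mammary tumours, metastases in lung, liver, spleen and brain, tissue beside metastases, healthy lung and liver, and the cultured lines that were injected. Values are RPKM, read counts scaled by transcript length and by sequencing depth. Where 1 animal gave several libraries of a tissue their mean was used, which left 281 profiles of an animal or a culture.

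In the allograft models, cells of an established line were grown in a host animal. The lines 4T1, 4T07, 67NR, D2A1, EMT6, F311 and TSAE1 were labelled with BALB hosts and an unknown oncogenic driver. The lines 6DT1 (cMyc), Mvt1 (cMYC/VEGF), Met1 (PyMT) and HRM1 (Pik3ca) were in FVB hosts, E0771 in BL6 and R3T in 129S1J. M6 (SV40T) was in hosts labelled REAR after orthotopic injection and in FVB hosts after intracardiac injection. Transgenic tumours arose in the animal itself: PyMT in FVB, BL6, BL10, CAST and MOLF, Myc and Neu in FVB, and SV40T in the C3Tag model, whose strain is labelled FVB, FVG and C3Tag in its 3 tumours. The PyMT, Myc and Neu titles name the MMTV promoter, and the BL6 and BL10 groups mix titles with those names and titles with BL6N and BL10J. In Met1, 4 animals gave a resected tumour as well as the primary tumour used in the comparisons. Healthy lung and liver came from wild-type FVB animals. Cells reached the lung from an orthotopic tumour or by tail-vein injection, and M6 and Met1 were also injected into the heart. For 6DT1, 1 adjacent liver is labelled intracardiac while the liver metastases of that line are labelled tail vein. The labels give no age or time after injection. An allograft model is 1 line, so a property of the line and a property of grafting cannot be told apart within a model.

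Interferon-gamma is a cytokine made mainly by activated T cells and natural killer cells. Its receptor signals through the kinases Jak1 and Jak2, and induced promoters can carry gamma-activated sites (GAS). Irf1 is a transcription factor that is induced early and acts at interferon-stimulated response elements (ISRE). Cxcl9, Cxcl10 and Cxcl11 are chemokines that attract T cells and natural killer cells through the receptor Cxcr3. Ubd encodes FAT10, a ubiquitin-like modifier. Iigp1 and Tgtp2 are immunity-related GTPases, and Gbp2 and Gbp3 are guanylate-binding proteins, large GTPases that act on intracellular pathogens. Type I interferons can induce several of the 9 genes too, Cxcl10 among them.

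The promoter stretches that hold these 2 elements are shown because they are the sites through which the pathway is known to act. RefSeq promoter windows (build GRCm38.p6, 250 bases before and 50 after the start) were searched for 7 of the 9 genes, with 9 windows. Cxcl11 and Iigp1 were not searched. For the members, windows on 1 chromosome were set aside beforehand, while the shares over all promoters include it. The GAS searched was TTCNNNGAA, present in 2726 of 32851 promoter windows (8.3%), and the ISRE was GAAANNGAAA or its reverse complement TTTCNNTTTC, present in 1131 (3.44%). A match was found in 5 of the 7 genes and none of these letters in the windows of Cxcl9 and Ubd. Each stretch reads 5′ to 3′ along the gene's strand, with the matches in capitals.
Cxcl10, chr5:92349048-92349139, minus strand, 1 ISRE: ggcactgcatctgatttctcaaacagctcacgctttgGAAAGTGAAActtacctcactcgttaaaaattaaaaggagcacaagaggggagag
Tgtp2, chr11:49064228-49064338, minus strand, 1 GAS and then 1 ISRE: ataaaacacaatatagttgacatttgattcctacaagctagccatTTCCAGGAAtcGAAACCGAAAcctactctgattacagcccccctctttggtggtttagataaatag
Gbp2, chr3:142620559-142620658, plus strand, 1 ISRE in reverse: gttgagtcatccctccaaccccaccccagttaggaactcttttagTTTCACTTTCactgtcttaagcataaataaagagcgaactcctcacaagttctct
Gbp3, chr3:142559954-142560043, plus strand, 2 overlapping ISREs in reverse: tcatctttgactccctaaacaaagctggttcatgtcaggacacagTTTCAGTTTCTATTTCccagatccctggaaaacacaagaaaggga
Irf1, chr11:53769879-53769977, plus strand, 1 GAS: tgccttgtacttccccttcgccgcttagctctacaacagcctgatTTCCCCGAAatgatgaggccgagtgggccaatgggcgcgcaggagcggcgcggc
Tgtp2 carried both elements without overlap, the GAS at positions -81 to -73 and the ISRE at -70 to -61 from the start. A match is a description of letters, and binding was not measured. Cxcl9, Cxcl10 and Cxcl11 lie next to each other in the annotation. Tgtp2 has a neighbouring near-copy, Tgtp1, with no row in the table, so its reads may include those of the copy. Cxcl11 is annotated by RefSeq as a transcribed pseudogene.

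The libraries held 8106344 to 54906212 reads (median 27175852), as read back from the deposited values. Cxcl11 was listed at 0 in 33 libraries and Ubd in 31. Labelled tissues were checked by their markers: healthy lung had a summed RPKM of 52930 to 88180 over 8 lung epithelial genes. The medians of the primary tumour groups were at most 16.7, with 1 PyMT BL6 tumour at 696.3, while the 10 lung metastasis groups with matched tumours ranged from 1.205 (1 PyMT BL6 animal) to 75780 (1 PyMT FVB animal). Since these are bulk samples, fewer cells of a type and less RNA per cell cannot be told apart.

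Among the 23 groups of primary tumours, the 9 genes were highest in EMT6 and TSAE1. The mean of the 9 genes on the log2(RPKM + 1) scale was 6.58 ± 0.14 (SD, n = 4) in EMT6 and 6.28 ± 0.47 (SD, n = 4) in TSAE1, followed by 5.41 ± 0.45 (SD, n = 6) in 4T07 and 5.11 ± 1.43 (SD, n = 4) in F311. The lowest primary tumours were PyMT CAST at 1.56 ± 0.17 (SD, n = 7), Myc at 1.67 ± 0.67 (SD, n = 6) and PyMT MOLF at 1.74 ± 0.34 (SD, n = 8). Ordered by this mean, none of the 22 neighbouring pairs of groups was free of overlap between animals. Differences between neighbours in this order were not tested.

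**Figure D1:**
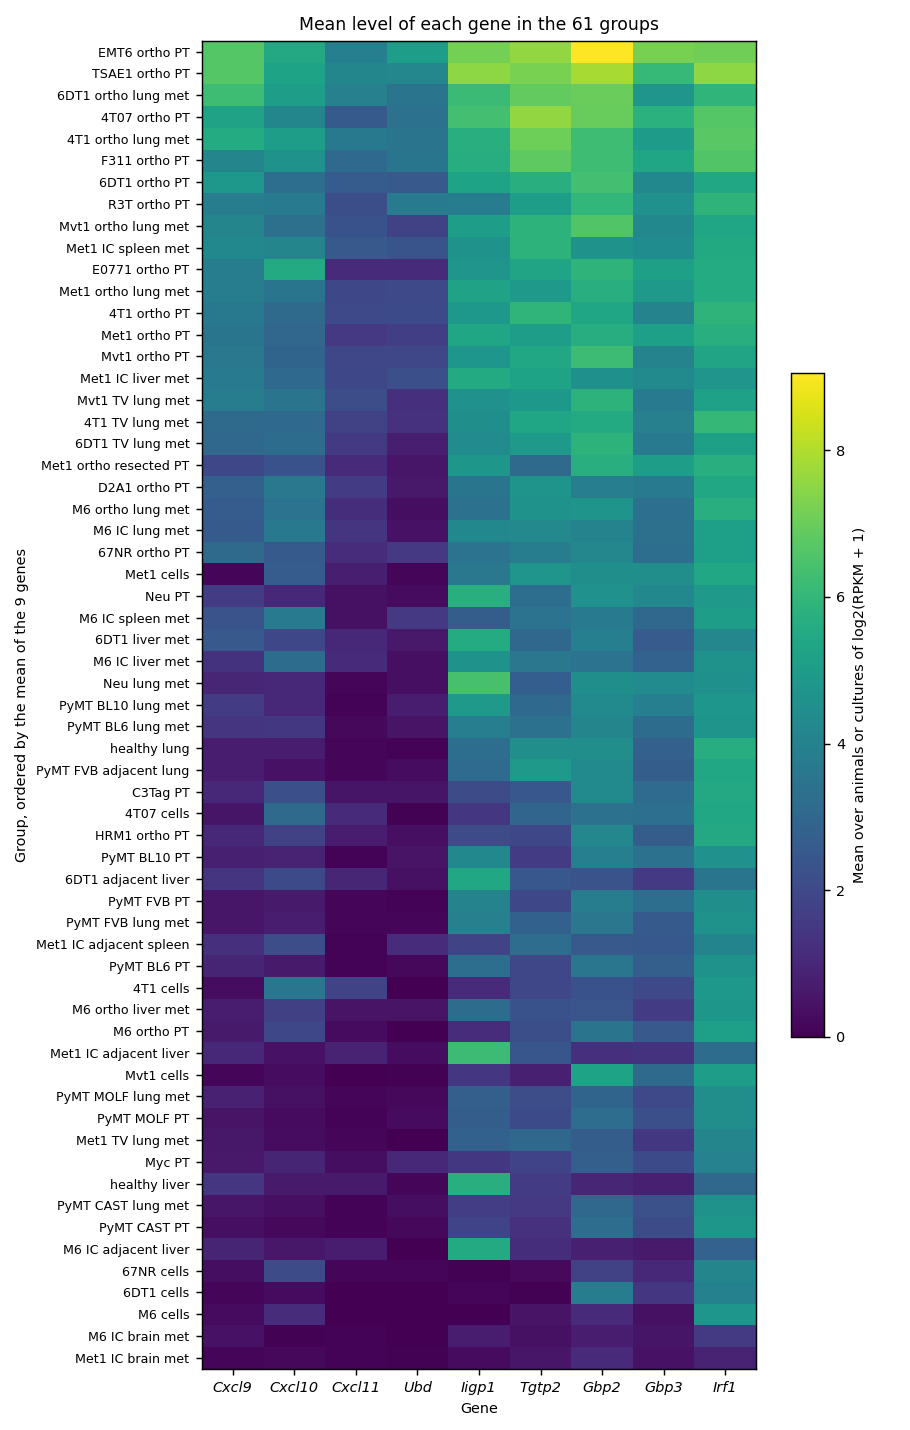
Heat map of the group mean of log2(RPKM + 1) for the 9 genes (columns) in the 61 groups (rows), averaged over animals. EMT6 and TSAE1 tumours hold the highest member means (6.58 and 6.28), and the 2 brain metastases the lowest of all groups (0.49 and 0.40).

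Among the chemokines, Cxcl9 in EMT6 tumours was 83.7, 93.9, 103.9 and 124.5 RPKM in the 4 animals, and in TSAE1 tumours 57.6, 93.4, 116.2 and 173.5. In the 14 PyMT FVB animals Cxcl9 ran from 0.154 through a median of 0.540 to 0.719 RPKM. Both allograft groups were above all PyMT FVB animals. EMT6 and TSAE1 are the groups with the highest member means, and how often other genes separate them from PyMT FVB was not counted. This separation is therefore a description. Cxcl10 was highest in E0771 (mean 47.3 RPKM) and Cxcl11 in TSAE1 (17.7 RPKM). Ubd was highest in EMT6, at 33.2 ± 11.6 RPKM (SD, n = 4).

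The highest group means of the GTPases, per length, were above those of the chemokines. Gbp2 stood at 477.1 to 582.9 RPKM in the 4 EMT6 animals and at 154.1 to 336.3 in the 4 TSAE1 animals, the next group, without overlap. Gbp3 did the same, with 130.6 to 172.2 RPKM in EMT6 and 41.8 to 96.3 in TSAE1. For the other 7 genes the neighbouring groups all overlapped. How often other genes separate neighbouring groups was not counted, so these separations are a description and no trait of Gbp2 and Gbp3. Tgtp2 was highest in 4T07 at 198.1 ± 53.1 RPKM (SD, n = 6), and Iigp1 in TSAE1 at 191.4 ± 70.7 (SD, n = 4). Irf1, the transcription factor, had the narrowest ratio of highest to lowest group mean of the 9 genes, from 16.2 RPKM in Myc to 186.4 in TSAE1.

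Some groups were uneven inside. In F311 tumours Tgtp2 was 28.7, 63.6, 276.9 and 289.5 RPKM in the 4 animals, and Cxcl9 was 4.67, 6.12, 39.6 and 53.1. The same 2 F311 animals were high for both genes. In R3T tumours 3 animals had Tgtp2 between 17.7 and 21.0 RPKM and 1 had 158.5. In the 2 Neu tumours Tgtp2 was 2.48 and 25.8 RPKM while Iigp1 went the other way, 73.5 and 36.9. Differences between groups held 77.9% (Ubd) to 87.3% (Gbp2) of the variance of log2(RPKM + 1) over the 127 primary tumour profiles.

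Across these 127 profiles the 9 genes varied together: the 36 pairwise correlations ran from 0.674 to 0.944 (median 0.837), and from 0.356 to 0.830 (median 0.665) once group means were removed. The profiles share lines and host strains, and 4 Met1 animals entered with both a resected and a primary tumour, so these are descriptions. The 10 other genes most like the mean of the 9 members, by Pearson correlation among 11827 genes, included Gbp6 (0.963), Gbp4 (0.961), Gbp10 (0.956), Gm12250 (0.951), Gbp5 (0.941), Gbp8 (0.935), Gm4951 (0.927), Olfr56 (0.925) and Gm12185 (0.916). The transcript of the cytokine itself, Ifng, had a correlation of 0.845 with the member mean and 0.673 within groups. Isg15, a gene best known as a type I interferon target, had 0.495 and 0.546.

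Ifng transcripts were scarce. Among 71 allograft tumours (4 resected Met1 tumours aside) 7 were listed at 0 and the median was 0.369 RPKM, whereas 42 of 52 transgenic tumours were listed at 0 and the highest of the rest was 0.101 RPKM. EMT6 had the highest Ifng group mean (4.61 RPKM) and TSAE1 the next (2.93). It was listed at 0 in every M6, Myc and C3Tag primary tumour.

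Allograft primary tumours held more of these transcripts than transgenic ones. The comparison set 14 allograft models against 8 transgenic models, with the mean of each model as 1 value, and tested log2(RPKM + 1) with limma over 11711 genes, calling a gene at a Benjamini-Hochberg adjusted p under 0.05. Of the 9 genes 8 were called higher in allografts, where 18.2% of all genes tested were called higher. Of these 8, Cxcl11 passed the expression filter through the allografts alone, so its call is no support. For Cxcl9, Cxcl10 and Ubd the transgenic medians were also under 1 RPKM (0.659, 0.801 and 0.206). Of the 14 allograft means, 12, 13 and 10 lay above every transgenic mean, enough to pass the filter. The calls of Cxcl9, Cxcl10 and Ubd are therefore limited in a similar way.

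Among the chemokines, Cxcl9 averaged 30.1 RPKM in allograft models and 0.887 in transgenic models, a difference of 3.03 ± 0.59 (SE) on the log2(RPKM + 1) scale (limma, adjusted p = 0.000308). Cxcl10 averaged 17.8 and 1.10 RPKM, a difference of 2.80 ± 0.44 (SE; adjusted p = 4.05e-05). For Cxcl10, 13 of the 14 allograft means lay above every transgenic mean, and for Cxcl9, 12. Cxcl11 differed by 1.84 (adjusted p = 0.000693), but all 8 transgenic means were under 1 RPKM (highest 0.427), so it entered the test through the allografts alone. Ubd differed by 1.88 (adjusted p = 0.00593).

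The GTPase Tgtp2 showed the largest difference of the 9 genes, 3.26 ± 0.61 (SE; limma, adjusted p = 0.000215), from 78.9 RPKM in allografts to 4.77 in transgenic tumours. Gbp2 averaged 105.8 and 13.4 RPKM, a difference of 2.13 (adjusted p = 0.00333), and Gbp3 differed by 1.66 (adjusted p = 0.00838). Irf1 differed by 1.24 (adjusted p = 0.00118), with 71.4 against 26.1 RPKM. Iigp1 was the member not called, with 53.1 and 14.9 RPKM, a difference of 1.51 and an adjusted p of 0.0837; only 4 of 14 allograft means exceeded the highest transgenic mean, that of Neu. The allograft means of M6 and HRM1 lay among the transgenic ones for several genes: M6 was the lowest allograft for Cxcl9 (0.601 RPKM), Ubd, Iigp1 (1.31) and Gbp2 (11.4), and HRM1 for Cxcl10 (2.90) and Tgtp2 (3.44).

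**Figure D2:**
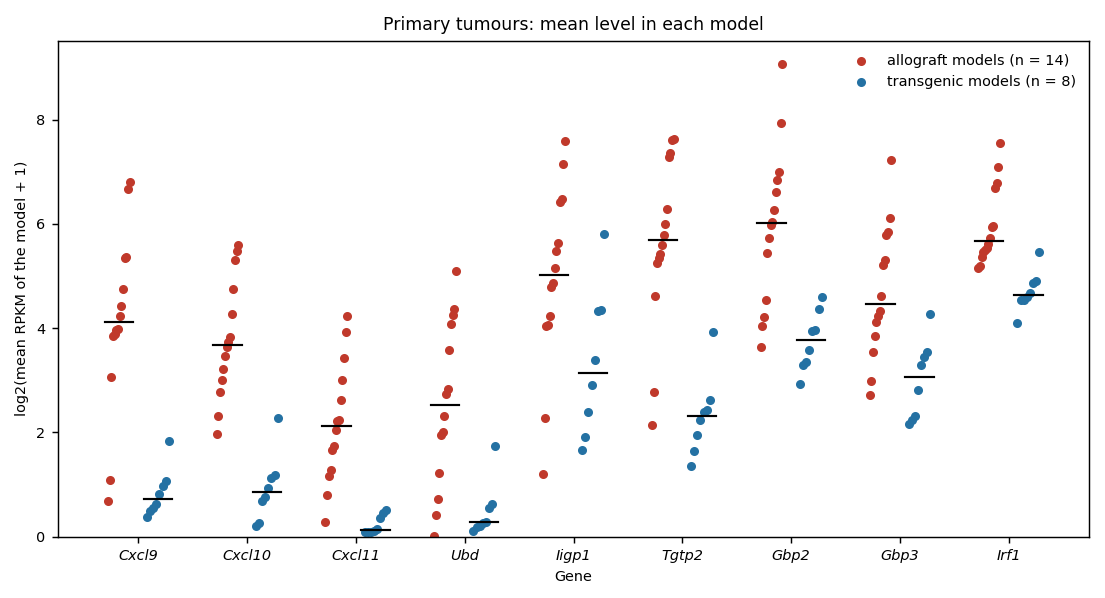
Model means of the 9 genes in primary tumours, on the log2(RPKM + 1) scale, with 1 point for each of 14 allograft and 8 transgenic models. Most allograft points lie above the transgenic ones, 13 of 14 for Cxcl10 and 4 of 14 for Iigp1.

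Other genes of the pathway moved with them. In the list of interferon-gamma, its receptor and signalling, 5 of 8 tested genes were called higher in allografts and none lower: Irf8, an interferon-induced transcription factor (2.00), Socs1, the feedback inhibitor (2.04) and Cxcr3 (1.28) were among them, while the receptor chain Ifngr1 differed by 0.13 (adjusted p = 0.632). Of the other interferon-inducible GTPases 10 of 11 were called higher, of MHC class II presentation genes 7 of 7, of MHC class I presentation genes 4 of 10, and of type I interferon-stimulated genes 3 of 16. Of 11 tested T and natural killer cell markers 11 were called higher. Their summed RPKM averaged 141.6 in EMT6 and 39.2 in 4T07, but 2.89 in M6, 4.72 in D2A1 and 5.44 in HRM1, against 3.03 to 9.03 in the 8 transgenic groups. The part of these cells in the difference was not tested.

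Host strain moves with the kind of model, since all 7 BALB models are allografts. Within FVB hosts, with 4 models of each kind and C3Tag counted as FVB, none of 8 tested members was called by limma, although 6 had an unadjusted p under 0.05, and 18 of 11429 genes were called in all. Cxcl9 differed there by 2.30 (adjusted p = 0.167), Cxcl10 by 1.54 (0.145), Tgtp2 by 2.15 (0.22), Gbp2 by 1.72 (0.175) and Irf1 by 0.75 (0.271).

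Tumours were also compared with the cultured cells of the same line, for 7 lines, with the line as a block. Of 7 tested members 6 were called higher in the tumours, where 12.4% of all genes were called higher; Cxcl9 and Ubd did not reach the expression filter and were not tested. Tgtp2 averaged 65.2 RPKM in tumours and 9.32 in cultures, a difference of 3.50 ± 0.57 (SE; limma, adjusted p = 0.0028), higher in 7 of 7 lines. Iigp1 differed by 3.33 ± 0.46 (SE; adjusted p = 0.00106), from 3.01 RPKM in culture to 36.7. Gbp2 differed by 2.30 (adjusted p = 0.000785), Gbp3 by 1.89 (0.000978), Cxcl11 by 1.16 (0.02) and Irf1 by 0.81 (0.0111). Cxcl10 differed by 1.12 (adjusted p = 0.0667) and was higher in 6 of 7 lines. Without the line as a block, 3 members were called.

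Of the companion lists, MHC class II presentation rose in 5 of 5 tested genes, MHC class I presentation in 10 of 10, the other GTPases in 10 of 11 and the type I interferon-stimulated genes in 8 of 16. Macrophage markers were called higher in 8 of 8 and fibroblast markers in 5 of 5, and the summed T and natural killer cell markers stayed at 0.914 RPKM or less in every culture of these lines. The part of these cells in the tumours' values was not tested.

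Cultures of 1 line were not alike. The 2 cultures of 4T1 named isolation had Cxcl10 at 61.1 and 50.1 RPKM, and the 2 named AS had 1.36 and 1.63. In 4T07 it was the reverse: the 2 named AS had 28.8 and 31.2 RPKM and the 2 named isolation 1.56 and 1.41. Tgtp2 followed the same crossing, with 7.60 and 13.1 against 0.352 and 0.301 RPKM in 4T1, and 43.8 and 38.2 against 0.532 and 0.357 in 4T07. Isg15 did too, with 52.9 and 77.0 against 2.89 and 2.72 RPKM in 4T1 and 190.8 and 179.1 against 26.8 and 29.1 in 4T07. The epithelial marker Epcam was 39.3 to 103.5 RPKM in all 4 cultures of 4T1 and at most 2.54 in those of 4T07. A second epithelial gene, Krt8, was 360.1 and 383.4 RPKM in the 4T1 cultures named AS against 136.8 and 159.8 in those named isolation, and 83.5 and 86.1 against 523.5 and 690.1 in 4T07. Ifng was listed at 0 in all 4 of 4T07 and reached 0.0275 RPKM in 4T1. In Met1 cultures Tgtp2 was 65.8, 42.5 and 5.25 RPKM. In the 3 Mvt1 cultures Gbp2 stood at 36.1 to 39.2 RPKM while Tgtp2 stayed below 1. With cultures named isolation alone, 5 of the 7 members were called, and Cxcl11 was not (adjusted p = 0.0876).

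**Figure D3:**
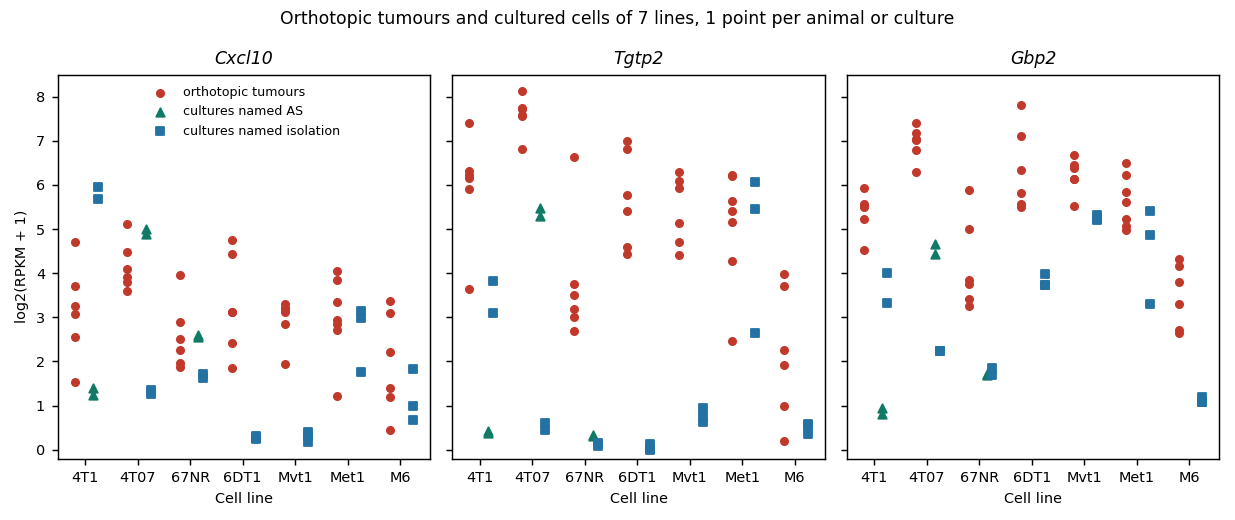
Cxcl10, Tgtp2 and Gbp2 in orthotopic tumours and cultured cells of 7 lines, on the log2(RPKM + 1) scale, with 1 point for each animal or culture. The 4T1 cultures named isolation and the 4T07 cultures named AS sit far above the other cultures of their line.

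The sister lines 4T07 and 4T1, grown in BALB hosts, were each compared with 67NR of the same family. Both comparisons use the same 67NR tumours. In 4T07 all 9 genes were called higher than in 67NR, where 29.5% of all genes were called higher, by 1.42 (Cxcl11) to 3.79 (Tgtp2) on the log2 scale. Tgtp2 averaged 198.1 and 23.6 RPKM (limma, adjusted p = 7.41e-05), Iigp1 84.5 and 15.5 (difference 2.93, adjusted p = 0.000266) and Gbp2 126.3 and 22.2 (difference 2.76, adjusted p = 7.37e-05). Cxcl9 was 23.7 to 77.1 RPKM in 4T07 and 2.34, 2.91, 5.58, 6.72, 7.54 and 82.5 in 67NR, where 1 animal stood above all the 4T07 tumours. Without that 67NR animal all 9 stayed called.

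In the same comparison the other GTPases were higher in 11 of 11, MHC class I presentation genes in 10 of 10 and type I interferon-stimulated genes in 14 of 16. Ifng was higher by 0.64 (adjusted p = 0.03), while Ifngr1 was lower (-0.97, adjusted p = 2.74e-06). Of 11 T and natural killer cell markers 1 was higher and 3 lower, and their summed RPKM ran from 26.0 to 78.1 in 4T07 and from 32.5 to 86.8 in 67NR.

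In 4T1 against 67NR, 3 of 9 members were called higher, again beside 29.5% of all genes: Tgtp2 by 2.14 (77.0 and 23.6 RPKM; limma, adjusted p = 0.0154), Gbp2 by 1.19 (adjusted p = 0.0234) and Irf1 by 0.81 (adjusted p = 0.00489). The count of 3 of 9 is close to the share of all genes called higher, so it is no result about the members as a set. Without the high 67NR animal the count was 6.

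Lung metastases were compared with the primary tumour of the same animal in 5 orthotopic allograft models and 5 PyMT strains, with the animal as a block. The question was whether the program is stronger or weaker where the tumour has spread. Members rose in 4T1 and 6DT1, and 1 gene each in M6 (Iigp1) and PyMT BL10 (Tgtp2). Cxcl9 was also called in M6, but it passed the filter through the metastases alone. No member was called lower in any of the 10 models. Members too low for the test were left out of a model: Cxcl11 and Ubd in M6, these and Cxcl10 in PyMT BL6 and BL10, and all 3 chemokines and Ubd in PyMT FVB, CAST and MOLF.

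In 4T1, 5 of 9 members were called higher in the metastasis, beside 7.36% of all genes. Cxcl9 in tumour and metastasis of the same animal was 21.2 and 60.7, 17.8 and 77.2, 7.42 and 19.0, 30.4 and 46.0, 2.58 and 40.6, and 9.82 and 61.6 RPKM. It was higher in 6 of 6 pairs, by 1.90 ± 0.34 (SE; limma, adjusted p = 0.0146). Cxcl10 rose by 1.93 (adjusted p = 0.0248), from 10.0 to 35.3 RPKM, Cxcl11 by 1.64 (adjusted p = 0.0201), Ubd by 1.46 (adjusted p = 0.0327, 5 of 6 pairs) and Irf1 by 0.82 (adjusted p = 0.023). Tgtp2 went from 77.0 to 149.6 RPKM, a difference of 1.13 that was not called (adjusted p = 0.152). The chemokine receptor Cxcr3 rose by 1.23 (adjusted p = 0.0105) and Ifngr1 by 0.52, the 2 called genes of 8 in the signalling list, and 1 of 11 other GTPases was called. Without animal 2 the count of members called was 2, and without animal 1, 9 or 12 it was 3.

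In 6DT1, 7 of 9 members were called higher, beside 19.4% of all genes. Cxcl10 was 7.67 and 11.8, 4.32 and 42.3, 7.69 and 37.6, 2.62 and 35.6, 20.6 and 29.6, and 26.0 and 61.3 RPKM in tumour and metastasis. It rose in 6 of 6 pairs, by 1.80 ± 0.40 (SE; limma, adjusted p = 0.0103). Cxcl9 rose by 1.43 (adjusted p = 0.0421), Cxcl11 by 1.34 (0.038), Tgtp2 by 1.23 (0.0347), Iigp1 by 0.91 (0.0436), Gbp2 by 0.64 (0.0213) and Irf1 by 0.52 (0.0113). The animal numbered 0 had lower Cxcl9 (18.6 to 14.2 RPKM) and Tgtp2 (41.5 to 25.6) in its metastasis, against the direction of the other 5, and without it all 9 members were called. Without animal 1, 2 or 3 the count was 2, and without animal 5 it was 3. In the same model 6 of 8 signalling genes rose, Cxcr3 by 0.89 among them, as did 7 of 11 other GTPases and 7 of 7 MHC class II presentation genes. Of 16 type I interferon-stimulated genes 9 rose and 1 fell. Without the animal as a block 1 member was called, and with no filter on low values 3 were.

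In M6, 2 of 7 tested members were called higher, beside 3.65% of all genes. Iigp1 was 1.25 and 53.2, 1.39 and 4.01, 0.157 and 3.28, 2.16 and 22.0, 0.894 and 5.24, and 2.03 and 8.45 RPKM, a rise of 2.30 ± 0.42 (SE; limma, adjusted p = 0.0224) in 6 of 6 pairs. Cxcl9 rose by 1.96 (limma, adjusted p = 0.037) from 0.601 to 8.71 RPKM. It passed the filter through the metastases alone, since no M6 tumour exceeded 0.927 RPKM. Its call is therefore no support, which leaves Iigp1. Healthy lung averaged 9.12 RPKM of Iigp1, above the metastases at 4.01, 3.28, 5.24 and 8.45 RPKM and below those at 53.2 and 22.0. The part of lung tissue in the rise of Iigp1 was not tested. Tgtp2 had the largest difference, 2.46 (adjusted p = 0.0642), with 0.994 and 118.5 RPKM in the animal with the highest metastasis. For each of 3 animals, leaving it out left no member called: those with Iigp1 at 22.0, 5.24 and 8.45 RPKM in the metastasis.

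In the PyMT strain BL10, Tgtp2 was the 1 called member of 6 tested, beside 0.973% of all genes. It was 2.59 and 9.5, 1.41 and 5.40, 2.29 and 7.44, 2.89 and 7.79, 1.38 and 5.57, and 2.06 and 10.2 RPKM in tumour and metastasis. Tgtp2 rose in 6 of 6 pairs, by 1.47 ± 0.13 (SE; limma, adjusted p = 0.00215). Healthy lung had Tgtp2 at 21.8 ± 5.4 RPKM (SD, n = 4), above all 6 metastases, and all 8 lung epithelial markers were higher in these metastases, with a median of 5.95 on the log2 scale. In 4T1 and 6DT1 the metastases' means of Tgtp2 (149.6 and 146.9 RPKM) were above the healthy lung's. Cxcl9 averaged 0.652 RPKM and Cxcl10 0.661 in healthy lung, below all 4T1 and 6DT1 metastases.

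The other 6 models had no member called by limma. These were Mvt1 (0 of 9, beside 29% of all genes called in either direction, 1 member at an unadjusted p under 0.05, largest difference Cxcl9 at 0.49), Met1 (0 of 9, 0.317%, none unadjusted, Tgtp2 -0.59) and PyMT FVB (0 of 5, 1.27%, 2 unadjusted). In PyMT FVB the largest difference was Gbp3 at -0.88 (adjusted p = 0.15), while Tgtp2 was higher in 11 of 12 pairs by 0.85 (adjusted p = 0.0692). PyMT BL6 had 0 of 6 (0.651%, 1 unadjusted), with Tgtp2 at 1.57 in 5 of 5 pairs. PyMT CAST had 0 of 5 (4.51%, none unadjusted, Tgtp2 0.24) and PyMT MOLF 0 of 5 (1.1%, none unadjusted, Gbp2 -0.34).

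**Figure D4:**
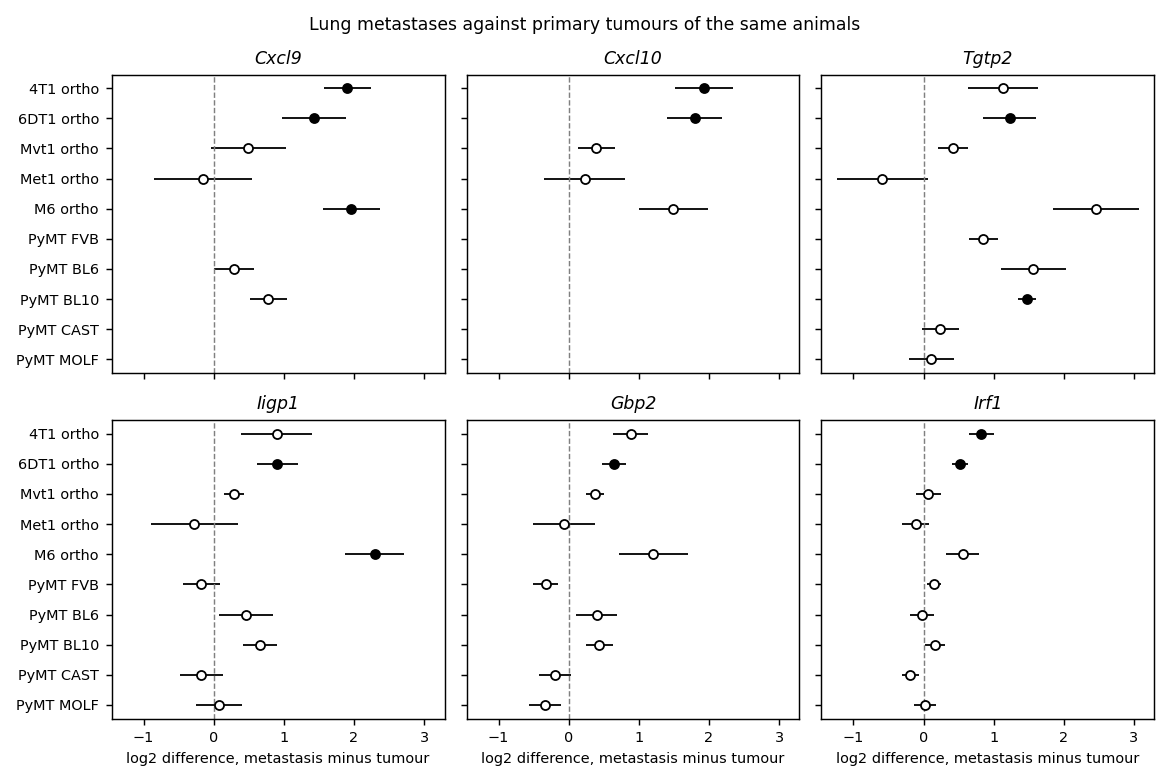
Lung metastasis minus primary tumour on the log2(RPKM + 1) scale for 6 of the genes in 10 models, with bars for the standard error. Filled points passed an adjusted p of 0.05 (limma), and a gene not tested in a model has no point. Filled points lie above 0, in 4T1, 6DT1, M6 and BL10. Cxcl9 in M6 entered the test through the metastases alone.

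Over the 10 models together, with each model's mean as 1 pair of values, 3 of 7 tested members were called higher, beside 11.7% of all genes. Cxcl9 rose by 0.73 ± 0.21 (SE; limma, adjusted p = 0.0203), Cxcl10 by 0.71 ± 0.21 (adjusted p = 0.022) and Tgtp2 by 0.89 ± 0.24 (adjusted p = 0.0149), each in 9 of 10 models. The difference between transgenic and allograft models in this rise was not called for any of the 9 members (0.611% of all genes were called, and 3 members had an unadjusted p under 0.05); the largest was Cxcl10 at -0.92 (adjusted p = 0.241). Beside these rises, 8 of 8 lung epithelial markers, 6 of 6 endothelial markers, 5 of 7 MHC class II genes and 4 of 8 T and natural killer cell markers were called higher, and 5 of 5 fibroblast markers lower. Summed T and natural killer cell markers went from 2.71 to 47.1 RPKM in 4T1 tumours to 18.4 to 82.0 in metastases, and from 1.11 to 5.80 to 14.4 to 100.6 in M6. In 6DT1 they were 30.5 to 168.1 in tumours and 40.2 to 84.2 in metastases. Their part in the rises was not tested.

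**Figure D5:**
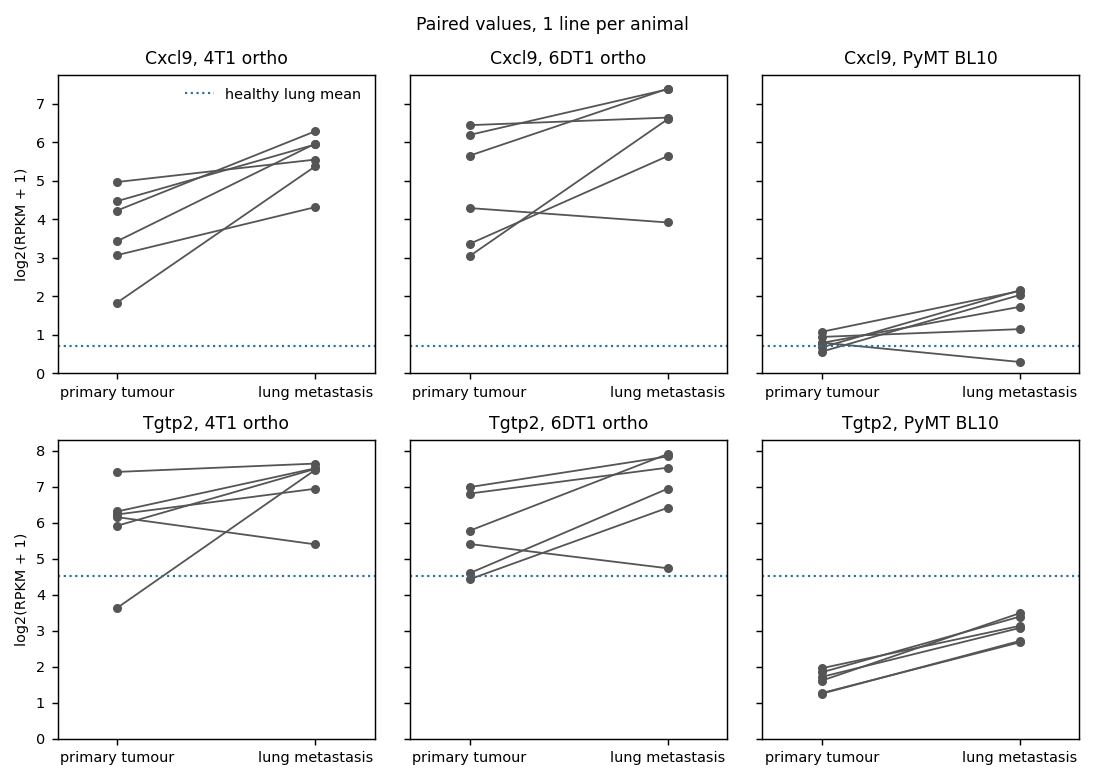
Cxcl9 (upper row) and Tgtp2 (lower row) in the primary tumour and lung metastasis of the same animal, on the log2(RPKM + 1) scale, for 4T1, 6DT1 and PyMT BL10, with 1 line per animal and a dotted line at the healthy lung mean. Tgtp2 in PyMT BL10 rises in 6 of 6 animals and stays below the healthy lung.

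Several animals gave more than 1 nodule. In 6DT1 lung metastases the member mean differed between nodules of 1 animal by 0.108 to 0.795 on the log2 scale (median 0.489, 5 animals), and in PyMT FVB the median was 0.281 (8 animals). In Met1 the median was 0.483 (5 animals), with 1 animal whose nodules were 2.62 apart. In 6DT1 after tail-vein injection the median was 0.541 over 2 animals, whose means were 0.466 apart.

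The route of entry to the lung was compared in 4T1 and Mvt1, tail-vein injection against spread from the orthotopic tumour. In 4T1, 4 of 9 members were called lower after tail-vein injection, beside 1.88% of all genes. Ubd was 0.115, 0.640, 0.844, 1.67, 2.00 and 7.11 RPKM after tail-vein injection and 3.37, 7.50, 9.21, 13.4, 14.7 and 23.1 after spread, with overlap through 1 animal, a difference of -2.20 ± 0.47 (SE; limma, adjusted p = 0.0231). Cxcl10 (-1.96, adjusted p = 0.0304), Cxcl11 (-1.89, 0.0218) and Irf1 (-0.69, 0.0448) were lower too. Cxcl9 had the largest difference, -2.45, with an adjusted p of 0.058. Socs1 (-1.11) was lower, as were 6 of 10 T and natural killer cell markers, whose summed RPKM was 4.41 to 43.0 after tail-vein injection and 18.4 to 82.0 after spread; their part was not tested. Without the tail-vein animal 1 or the orthotopic animal 12 no member was called, and without the tail-vein animal 5, the highest, 8 were. In Mvt1 none of 9 was called by limma (4.25% of all genes were, and 1 member had an unadjusted p under 0.05), with Tgtp2 the largest at -1.003 (adjusted p = 0.259).

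Among PyMT tumours of different strains, all compared with the same FVB tumours, the 2 strains from wild-derived mice were lower in 2 members. In CAST, 2 of 5 tested members were called lower, beside 5.67% of all genes. Iigp1 was 0.943 to 4.62 RPKM (median 2.67) in 7 CAST animals and 0.806 to 45 (median 18.7) in 14 FVB animals, a difference of -2.22 ± 0.44 (SE; limma, adjusted p = 0.00232). Gbp3 differed by -1.22 (adjusted p = 0.015). In MOLF the same 2 genes were called among 5, beside 24.1% of all genes called lower: Iigp1 at -1.36 (adjusted p = 0.021) and Gbp3 at -1.06 (adjusted p = 0.0083). Of 16 type I interferon-stimulated genes 7 were lower in CAST and 14 in MOLF. Reads of all strains were placed on the mm9 reference, whose sequence can differ from CAST and MOLF, and the part of that in these values was not tested. In BL6 (6.59% of all genes called in either direction) and BL10 (9.37%) none of 5 tested members was called by limma and none had an unadjusted p under 0.05. Their largest differences were Iigp1 at -0.75 and Tgtp2 at -0.37.

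In healthy tissue the 9 genes had profiles of their own. Healthy lung had Irf1 at 49.3 RPKM, Gbp2 at 22.4 and Cxcl11 at 0.0804. Healthy liver had Iigp1 at 55.2 ± 22.4 RPKM (SD, n = 4) with Gbp2 at 0.973 and Irf1 at 7.32. Lung beside PyMT FVB metastases did not pass the test against healthy lung for any of 5 tested members (limma, 13.6% of all genes called, none of the 5 at an unadjusted p under 0.05, largest Tgtp2 at 0.42). Liver beside metastases did not against healthy liver for any of 6 (1.14%, none unadjusted, largest Cxcl9 at -0.42).

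Liver metastases of M6 after intracardiac injection were compared with the adjacent liver of the same 5 animals. Here 5 of 6 tested members were called higher (81.9% of all genes were) and Iigp1 was called lower (11.3% of all genes were). The count of 5 of 6 is close to the share of all genes called higher, so it is no result about the members as a set. Cxcl10 was 5.41, 6.50, 12.2, 13.0 and 31.2 RPKM in metastases and 0.269 to 1.18 in adjacent liver, a difference of 3.06 ± 0.27 (SE; limma, adjusted p = 3.01e-05). Gbp2 differed by 3.05, Tgtp2 by 2.82, Gbp3 by 2.74 and Irf1 by 2.20, each higher in 5 of 5 animals. Gbp3 passed the filter through the metastases alone (highest adjacent value 0.932 RPKM), so its call is no support. Cxcl10 and Gbp2 also averaged under 1 RPKM in adjacent liver (0.517 and 0.759), so their calls are limited in a similar way. Iigp1 was 12.5 to 32.7 RPKM in metastases and 29.8 to 59.1 in adjacent liver, lower in 5 of 5 animals, by -1.13 ± 0.15 (SE; adjusted p = 2.45e-08). Most genes were called higher here, and dividing each profile by the median ratio of its genes shifted differences by -1.38; Cxcl10 then differed by 2.00, Gbp2 by 1.86, Irf1 by 0.63 and Iigp1 by -2.77, with the same directions. All 6 hepatocyte markers were lower in the metastases, and their summed RPKM was 6249 to 31460 in all 7 liver metastases and 18670 to 32920 in adjacent liver.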

How the data were processed

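Per the labels' protocols, total RNA of frozen tissue and of cultures was read on a HiSeq2500 (TruSeq v4). TopHat, DESeq2 and the build mm9 are named in the submitters' processing notes, and the step each served is not given in the sources used here. The authors deposited RPKM values of 20188 genes in 335 libraries. For 7654 genes the RPKM steps gave whole reads within 0.001, from which depth (8106344 to 54906212 reads) was read back. Among 1223 pairs of libraries of the same group, 0 were identical.

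Libraries of 1 tissue and animal were averaged, giving 281 profiles. Tests used limma 3.58.1 (R 4.3.3) with trend and robust moderation on log2(RPKM + 1), keeping a gene if the number of profiles at 1 RPKM or above reached the size of the smaller group, with Benjamini-Hochberg adjustment over all of them. Other values were computed with Python 3.11.15, numpy 2.4.6, pandas 2.3.3 and matplotlib 3.10.9. The fold scale understates changes of low genes. The fit was tested on simulated data.

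Metastasis and tumour were paired by the animal that the labels name, with animal as a block. For a PyMT FVB metastasis the sample title and the name of its deposited values give different animal numbers. The title was followed, and the effect of this on the pairing was not tested. Deviations of a pair from the group means correlated above 0.1 in 4 of 6 pairs in 4T1, 6DT1, Met1 and M6, 2 of 6 in Mvt1 and PyMT BL10, 9 of 12 in PyMT FVB, 2 of 5 in BL6, 6 of 7 in CAST, 7 of 8 in MOLF and 5 of 5 in the M6 liver pairs. Replicates are animals named in the labels. Cultures may be technical repeats, and they entered the test only as the mean of their line. Where lines or models were the unit, a p-value measures the spread between lines or models.

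A member was named in a comparison where its adjusted p was under 0.05 or its difference was the largest; the values of other members and list genes were added after they were seen. Some list genes are not reported here. Members and gene lists were chosen with earlier results of these data known. Alternatives were a pseudocount of 0.1, no filter, median-ratio rescaling, no block and leaving out animals or models. Chosen after seeing the data were leaving out animals or models in 4T1, 6DT1, M6, PyMT BL10, the 10 models together and the 4T1 routes, the FVB hosts, the cultures named isolation, and single animals of PyMT FVB and 67NR. Sequences come from RefSeq (GRCm38.p6), which differs from the authors' build, so no value was placed by coordinate.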

Additional observations from a re-analysis of the deposited data

Results flagged for a closer look

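For each of the 9 genes, a group of 4 to 10 animals or cultures was searched for a highest or lowest value far from the rest by Dixon's ratio of gap to range. Of 350 groups tested 29 held such a value, and chance gives about 1 in 20. The 67NR tumour of animal 5 was the highest of its group for 5 genes: Cxcl9 82.5 RPKM (group median 6.15), Ubd 11.4 (1.12), Iigp1 57.5 (7.71), Tgtp2 98.1 (9.24) and Irf1 58.6 (31.2). 1 M6 lung metastasis was highest for Cxcl11 (8.12 RPKM, median 0.886) and Gbp2 (102.9, median 22.2). The metastasis of 4T1 animal 9 was lowest for Iigp1 (14.1 RPKM, median 65.2) and Tgtp2 (41.2, median 177.4). The healthy lung PF3 was lowest for Iigp1 (4.96 RPKM, median 10.1) and Gbp2 (10.9, median 24.8).

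Among single primary tumours, Cxcl10 was low in Mvt1 animal 1 (2.86 RPKM, median 7.93) and high in 1 Myc animal (4.81, median 0.672). Ubd was high in Met1 animal 1 (31.7 RPKM, median 1.505) and 1 PyMT BL10 animal (2.38, median 0.146). Tgtp2 was high in R3T animal 1-6 (158.5 RPKM, median 20.4), Gbp3 in D2A1 animal 5 (25.4, median 9.98) and Cxcl11 in 1 PyMT MOLF animal (0.174, median 0.0623). Irf1 was low in Met1 animal LW1 (30.3 RPKM, median 54.7) and high in Mvt1 animal 5 (77.6, median 34.7).

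Among metastases, Cxcl9 was low in Mvt1 animal 1 (1.12 RPKM, median 20.1), Cxcl11 high in 1 PyMT CAST animal (0.196, median 0.0371), Gbp3 high in 1 PyMT BL6 animal (29.4, median 6.92) and Irf1 low in another PyMT CAST animal (9.37, median 26.3). In 1 M6 animal, Ubd was high in the liver metastasis (1.40 RPKM, median 0.208) and Cxcl9 in the adjacent liver (1.97, median 0.737). The 67NR culture isolation1 was highest for Cxcl9 (0.363 RPKM, median 0.251), Iigp1 (0.0708, median 0.0267) and Gbp2 (2.63, median 2.27).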

How the results depend on the processing

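Changes of direction were checked for the members named in each comparison, those called or with the largest difference. None of them reversed under the alternatives run, and the other members were not checked. For these named members, 237 values under the other settings stayed on their side of the threshold and 26 lost it. With an animal or model left out, 200 stayed, 61 lost it and 4 gained it. The counts of members called that follow cover all tested members. Without the animal or line as a block (pairs ignored), 1 member instead of 7 was called in 6DT1 and 3 instead of 6 for tumours against cultures, and no other count of members called differed. With no filter on low values, 3 instead of 7 were called in 6DT1, 1 instead of 2 in M6, and 1 instead of 0 in PyMT BL6 against FVB tumours. A pseudocount of 0.1 gave 1 instead of 0 in PyMT FVB metastases, and median-ratio rescaling gave 1 instead of 0 in Mvt1. Models in FVB hosts gave 0 instead of 8 for allografts against transgenic tumours, and dropping 67NR animal 5 gave 6 instead of 3 for 4T1 against 67NR. The cause was not tested.

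Leaving out 1 animal gave 2 to 5 members in 4T1 metastases (2 without animal 2; 3 without 1, 9 or 12), 2 to 9 in 6DT1 (2 without 1, 2 or 3; 3 without 5), 0 to 3 in M6 (1 without either of 2 further animals) and 0 to 8 for the 4T1 routes (1 without tail-vein animal 4 or 6, 2 without tail-vein 8 or orthotopic 10 or 11, 7 without orthotopic 9). Leaving out 1 model gave 3 in each of the 10 models together and 0 to 1 for transgenic against allograft models (1 without Met1). M6 liver metastases gave 6 to 7 and PyMT BL10 gave 1 each time. PyMT BL6 metastases, adjacent lung and adjacent liver gave 0 each time. PyMT FVB metastases gave 0 in the run that left out 1 animal, chosen after seeing the data.

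Rescaling moved the share of called genes that were higher by over 10 points: in 4T1 from 60.8% to 44.2%, M6 77.5% to 59.8%, PyMT FVB 66.7% to 84.1%, CAST 29.1% to 46.6%, the 10 models 37.6% to 54.5%, BL6 tumours 42.4% to 60.0%, MOLF tumours 33.3% to 48.8%, Mvt1 routes 93.8% to 65.6%, adjacent lung 26.4% to 45.8% and M6 liver metastases 87.9% to 50.7%. Depth limits Cxcl11 and Ubd, which many libraries list at 0.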
